A study of Mus musculus with 4 samples.

Results

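GIMAP genes (GTPases of immunity-associated proteins) were followed in splenic CD8 T cells of mice given the dioxin TCDD or its solvent DMSO. The family was taken as 8 genes, Gimap1, Gimap3, Gimap4, Gimap5, Gimap6, Gimap7, Gimap8 and Gimap9, and its members were the probe sets that the platform annotation assigns to exactly 1 of them. That gave 6 probe sets for 5 genes (Gimap1, Gimap3, Gimap4, Gimap6 and Gimap7) out of 22626 probe sets and 12393 named genes on the array. For 3 genes, Gimap5, Gimap8 and Gimap9, no probe set was assigned to that gene alone, and they were not analysed here. Probe sets annotated to several genes were not counted for any gene. Gimap4 had 2 probe sets, and the one with the higher mean over the arrays stood for the gene.

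The TCDD group were female C57BL/6 mice aged 8 to 12 weeks that received 10 µg/kg TCDD by intraperitoneal injection, and the DMSO group were mice of the same sex, strain and age that received the solvent by the same route. Spleens were taken after 24 h and CD8 T cells were sorted by FACS. Each group consisted of 4 mice whose cells were pooled, with 2 arrays per group, titled with the numbers 1 and 2. Whether the 2 arrays of a treatment stem from different pools is not given in the labels, and the p-values therefore reflect the spread among these arrays, possibly a technical one.

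GIMAP proteins are guanine nucleotide-binding proteins found mainly in lymphocytes, where several sit on intracellular membranes. In mice, loss of Gimap1 or Gimap5 depletes mature lymphocytes, and Gimap6 is needed for peripheral T cell numbers. The family is known for setting how long resting T cells survive, in connection with BCL2 family proteins, autophagy and signals from the T cell receptor. TCDD acts through the aryl hydrocarbon receptor (AHR), a transcription factor that binds dioxin response elements in DNA.

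The genes lie side by side on mouse chromosome 6. In the RefSeq gene table of GRCm38.p6 the protein-coding order is Gimap8, Gimap9, Gimap4, Gimap6, Gimap7, Gimap1, Gimap5 and Gimap3, with Gimap6 and Gimap3 on the minus strand and the others on the plus strand. Promoter stretches of 4 measured members are shown to set Gimap6 and Gimap1, for which the treatment groups did not overlap, beside Gimap4 and Gimap3, whose main probe sets had the differences nearest to 0, although the other probe set of Gimap4 differed by −0.28. Each stretch is the 250 bases before the gene's start, 5′ to 3′ on the gene's own strand, from RefSeq GRCm38.p6, with any match to GCGTG or TGTGGT, on either strand, in capitals. GCGTG is the core of the dioxin response element and TGTGGT a motif of RUNX factors, which regulate T cell genes.
Gimap6, chr6:48708245-48708494, minus strand: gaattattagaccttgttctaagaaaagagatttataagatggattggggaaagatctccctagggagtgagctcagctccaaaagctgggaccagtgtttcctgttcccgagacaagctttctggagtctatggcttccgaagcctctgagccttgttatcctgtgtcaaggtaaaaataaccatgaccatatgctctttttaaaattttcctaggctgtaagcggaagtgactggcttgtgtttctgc
Gimap1, chr6:48738797-48739046, plus strand: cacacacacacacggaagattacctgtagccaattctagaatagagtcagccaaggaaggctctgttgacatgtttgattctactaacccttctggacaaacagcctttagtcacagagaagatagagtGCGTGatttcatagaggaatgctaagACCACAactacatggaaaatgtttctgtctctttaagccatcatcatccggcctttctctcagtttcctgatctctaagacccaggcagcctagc
Gimap4, chr6:48684328-48684577, plus strand: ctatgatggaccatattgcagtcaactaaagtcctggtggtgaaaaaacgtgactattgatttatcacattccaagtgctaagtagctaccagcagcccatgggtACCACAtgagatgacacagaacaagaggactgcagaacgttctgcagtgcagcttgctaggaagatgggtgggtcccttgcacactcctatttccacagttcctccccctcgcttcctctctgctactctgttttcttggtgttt
Gimap3, chr6:48770852-48771101, minus strand: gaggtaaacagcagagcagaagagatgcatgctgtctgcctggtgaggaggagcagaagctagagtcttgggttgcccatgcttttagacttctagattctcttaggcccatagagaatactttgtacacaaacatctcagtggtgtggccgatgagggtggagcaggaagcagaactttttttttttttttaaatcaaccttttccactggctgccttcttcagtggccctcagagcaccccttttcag
The stretch of Gimap1 held GCGTG 121 bases before the start and TGTGGT, read on the other strand as ACCACA, 95 bases before it. That of Gimap4 held ACCACA 145 bases before the start, and those of Gimap6 and Gimap3 held neither motif. Over all 9 stretches of the 8 genes (Gimap8 has 2 starts in the table), GCGTG occurred in 2, those of Gimap1 and Gimap9, and TGTGGT in 3, those of Gimap1, Gimap4 and Gimap7. The ETS motif CCGGAA occurred in 0 of 9. Among all 32851 stretches of the same length, 28.2% held GCGTG, 14.0% TGTGGT and 12.0% CCGGAA, on either strand. No motif match overlapped another. A match describes the letters alone, and the absence of a match says nothing about binding by the factor.

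All 5 measured GIMAP genes had a lower mean in the TCDD arrays than in the DMSO arrays, by between 0.025 and 0.605 on the log2 scale, and none passed the test. A lower mean was found for 5743 of 12393 named genes, and for 3521 of the 7389 above the median level. The main probe sets of Gimap3 and Gimap4 differed little, by −0.025 and −0.045. For Gimap6 and Gimap1 the TCDD arrays were both lower than the DMSO arrays. Gimap7, Gimap4 and Gimap3 had overlapping groups, and for Gimap7 and Gimap4 the order of TCDD and DMSO was opposite in the arrays numbered 1 and 2. The values are log2 RMA values (a microarray summary normalised between arrays), the differences are TCDD minus DMSO, and limits are 95% limits from limma. The limma test with Benjamini-Hochberg adjustment over 22626 probe sets, at a threshold of 0.05, called 0 of 5 genes, as it called 0.0% of all probe sets, with no adjusted p under 0.9973. Before adjustment, 1 of 5 genes, Gimap6, had a limma p under 0.05, against 261 of 12393 named genes and 1.94% of all probe sets. Among the 7389 genes with means above the median of all probe set means, 227 did.

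Gimap6, whose human protein binds the autophagy protein GABARAPL2, had the largest difference of the family. It measured 8.47 and 8.25 in the TCDD arrays numbered 1 and 2, against 9.08 and 8.85 in the DMSO arrays. The groups were apart by 0.38, more than the spread of 0.22 or 0.23 between the arrays of a group. The mean was 8.36 ± 0.156 (SD, n = 2) in the TCDD arrays and 8.965 ± 0.163 (SD, n = 2) in the DMSO arrays. The difference of −0.605, or 1.52-fold lower with TCDD, had 95% limits of −0.98 and −0.23. Its unadjusted limma p was 0.009339 and its adjusted p 0.9973. The difference was nearly the same within each number, at −0.61 between the arrays numbered 1 and −0.60 between those numbered 2. Among the 7389 genes whose mean lay above the median of all probe set means, Gimap6 had the 101st lowest difference.

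Gimap1, which mature T and B cells of mice require, also had separate groups, by a narrower gap. It measured 7.52 and 8.04 in the TCDD arrays, against 8.22 and 8.18 in the DMSO arrays. The gap between the groups was 0.14, while the TCDD arrays differed from each other by 0.52. The difference was −0.42, with limits of −0.93 and 0.09 (limma adjusted p = 0.9973, unadjusted p = 0.0884). It came to −0.70 within number 1 and −0.14 within number 2, and it was −0.16 without TCDD replicate 1 and −0.68 without TCDD replicate 2.

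The TCDD arrays were thus both below the DMSO arrays for 2 of the 5 genes and both above for 0. Over all named genes the TCDD arrays were both below for 12.0% and both above for 12.9%. Among genes above the median level, where all 5 GIMAP genes lie, these shares were 12.8% and 11.1%. With 5 genes, a count of 2 is read as a description. The smallest two-sided p that permuting 4 arrays in groups of 2 allows is 0.3333, so no permutation test was run on single genes.

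**Figure D1:**
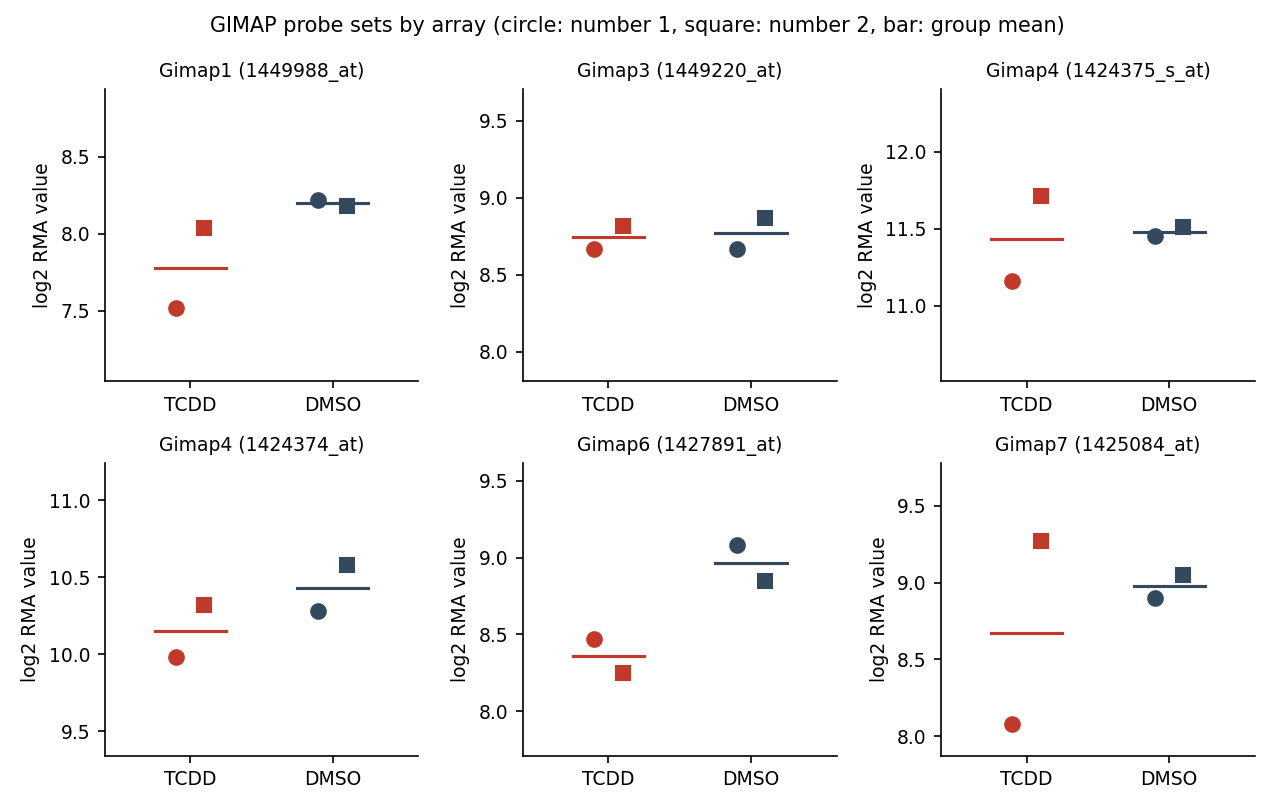
Log2 RMA value (y axis, each panel spanning the same range of 1.9) of the 6 GIMAP probe sets in the TCDD arrays (red, left) and the DMSO arrays (blue, right), with circles for number 1, squares for number 2 and a bar at each group mean. The TCDD arrays sit below the DMSO arrays for Gimap6 and Gimap1, and TCDD replicate 1 is the lowest array for Gimap7 and for both Gimap4 probe sets.

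Gimap7, whose human protein hydrolyses GTP as a dimer, varied most between arrays. It measured 8.08 and 9.27 in the TCDD arrays, against 8.90 and 9.05 in the DMSO arrays, so the TCDD arrays held both the lowest and the highest value. The difference of −0.30 had limits of −1.35 and 0.75, a range from 0.392-fold to 1.68-fold. Within number 1 Gimap7 was lower after TCDD, with a difference of −0.82, and within number 2 it was higher, with a difference of 0.22. Without TCDD replicate 1 the difference turned to 0.295, and without TCDD replicate 2 it was −0.895.

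Gimap4, whose protein speeds the death of T cells once apoptosis has begun, was read by a pair of probe sets that differed in pattern. The probe set with the higher mean, 1424375_s_at, measured 11.16 and 11.71 in the TCDD arrays, against 11.45 and 11.51 in the DMSO arrays. Its difference was −0.045, with limits of −0.58 and 0.49, and it came to −0.29 within number 1 and 0.20 within number 2. The other, 1424374_at, measured 9.98 and 10.32 in the TCDD arrays, against 10.28 and 10.58 in the DMSO arrays. This probe set was lower after TCDD within both numbers, with differences of −0.30 and −0.26, although the groups overlapped by 0.04, and its difference of −0.28 had limits of −0.74 and 0.18. The suffix _s_at marks a probe set whose probes may match more than a single transcript. The probe sequences were not used here, so cross-reaction among GIMAP transcripts was not tested. Without TCDD replicate 1 the difference of the first probe set turned to 0.23.

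Gimap3, which is closely related to Gimap5 and has been linked with it to T cell survival, had nearly the same values in both groups. It measured 8.67 and 8.82 in the TCDD arrays, against 8.67 and 8.87 in the DMSO arrays. The 95% limits of its difference of −0.025 were −0.36 and 0.31, and a ratio below 0.779-fold or above 1.24-fold was outside them. It was 0 within number 1 and −0.05 within number 2. The RefSeq table lists Gimap5 among the synonyms of Gimap3 although Gimap5 is a gene of its own, so results under the older name need care. The platform annotation ties the probe set 1449220_at to the Entrez identifier of Gimap3.

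**Figure D2:**
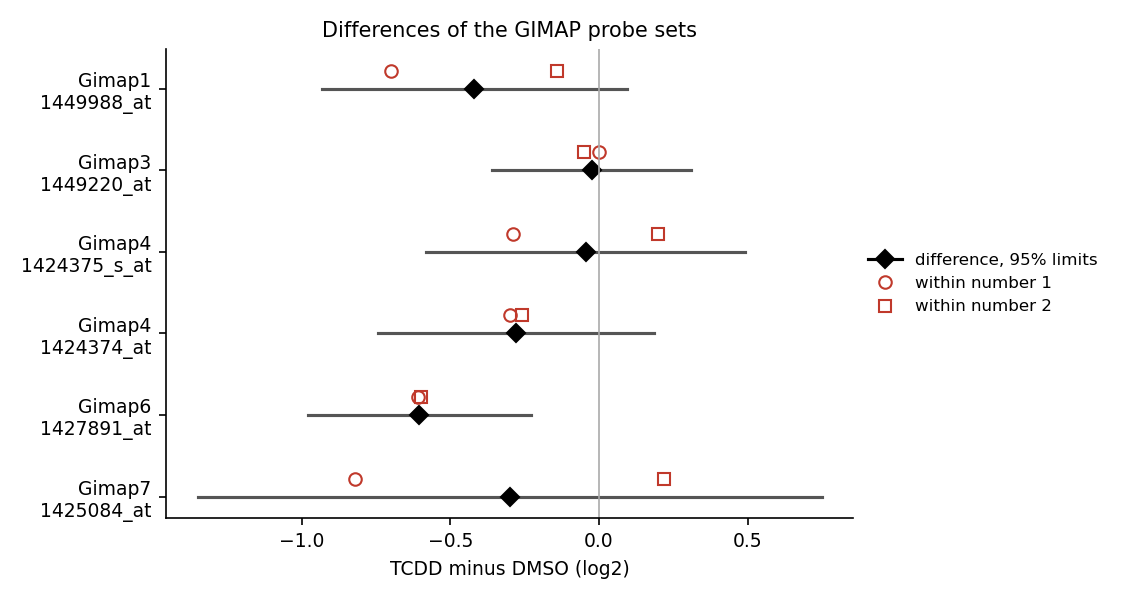
Difference TCDD minus DMSO on the log2 scale (x axis) for the 6 GIMAP probe sets, with diamonds and lines for the limma difference and its 95% limits, and open symbols for the difference within number 1 (circle) and within number 2 (square). Gimap6 has its open symbols at −0.61 and −0.60, while those of Gimap7 lie at −0.82 and 0.22.

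Over the 5 genes the median difference was −0.30, against 0.01 over all named genes and over those above the median level. That median is the value of Gimap7, the member that varied most between arrays. Within number 1 the median was −0.61 and within number 2 it was −0.05, where all genes had −0.03 and 0.05. Much of the family's shift thus lay in TCDD replicate 1. Without that array the median difference was 0.05, and without TCDD replicate 2 it was −0.495, whereas leaving out DMSO replicate 1 or 2 gave −0.375 and −0.225. Gimap6 went against this pattern, since its lowest value was in TCDD replicate 2, and its difference without TCDD replicate 1 was −0.715.

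A limma fit with treatment and number as terms gave the difference number 2 minus number 1, averaged over both treatments. It was 0.67 for Gimap7, 0.305 for Gimap4, 0.24 for Gimap1, 0.175 for Gimap3 and −0.225 for Gimap6. None passed the adjustment (adjusted p of 0.8786 or more), as 0.0% of all probe sets did (lowest adjusted p = 0.4779), and 6.02% had an unadjusted p under 0.05. For 3 of the genes the treatments were unlike. In the TCDD arrays number 2 minus 1 was 1.19 for Gimap7, 0.55 for Gimap4 and 0.52 for Gimap1. In the DMSO arrays it was 0.15, 0.06 and −0.04. For Gimap3 it was 0.15 in TCDD and 0.20 in DMSO arrays, and for Gimap6 −0.22 and −0.23. What the number marks is not given in the labels.

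Differences were also taken for the genes that flank the cluster. The 5 nearest measured genes on the side of Gimap8 were Sspo, Atp6v0e2, Lrrc61, Rarres2 and Repin1, and the 5 nearest on the side of Gimap3 were Tmem176b, Tmem176a, Aoc1, Doxl1 and Gpnmb. Their differences ran from −0.19 for Aoc1, which encodes a diamine oxidase, to 0.15 for Rarres2, which encodes chemerin, with a median of −0.0025. The TCDD arrays were both below the DMSO arrays for 1 of the 10, Repin1, and both above for 0, against 12.0% and 12.9% of all named genes. Of these 10 genes 6 had means above the median level, and their arrays averaged between 6.13 and 6.33, little above the median of 6.01 over all probe sets. Along the chromosome the 3 adjacent genes Gimap6, Gimap7 and Gimap1 had the lowest differences, and Gimap4 and Gimap3 to either side were at −0.045 and −0.025, with the unmeasured Gimap5 between Gimap1 and Gimap3. That order depends on the probe set of Gimap4, since its other probe set, at −0.28, was close to Gimap7 at −0.30.

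**Figure D3:**
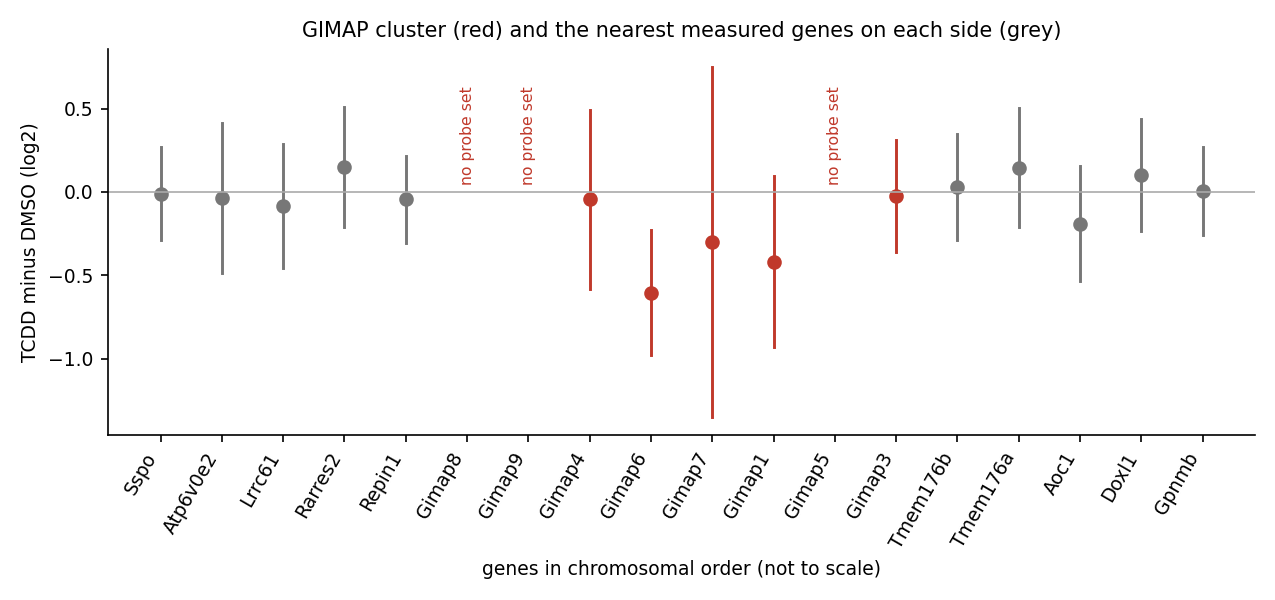
Difference TCDD minus DMSO on the log2 scale (y axis) with 95% limits from limma, for the GIMAP genes (red) and the nearest measured genes on each side (grey), in chromosomal order and not to scale. Gimap6, Gimap7 and Gimap1 lie at −0.605, −0.30 and −0.42, and the 10 grey genes lie between −0.19 and 0.15. Genes marked as without a probe set had none assigned to them alone.

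By list mean, markers of CD8 T cells moved across the arrays much as the GIMAP genes did. Single genes departed from this, since Gimap6 and the marker Thy1 were lowest in TCDD replicate 2 and the marker Cd5 in DMSO replicate 2. The other markers were lowest in TCDD replicate 1. The mean level of the 5 GIMAP genes was 8.78 and 9.22 in the TCDD arrays, against 9.26 and 9.29 in the DMSO arrays. The mean level of 8 measured CD8 T cell markers (of 10 listed) was 9.115 and 9.55 in the TCDD arrays, against 9.57 and 9.645 in the DMSO arrays. In both lists the mean was lowest in TCDD replicate 1, and the means of the other arrays were close together. The mean over the 7389 genes above the median level stayed between 7.59 and 7.60. Of the 8 markers, 3 had both TCDD arrays below both DMSO arrays (Cd8a, Cd3g and Thy1), against 12.0% of all named genes, and 0 passed limma. The list's median difference was −0.1675, and it was 0.005 without TCDD replicate 1, −0.435 without TCDD replicate 2 and −0.315 without DMSO replicate 1. In bulk RNA, fewer T cells in a sample and less GIMAP RNA per T cell cannot be told apart, and the part of the marker difference in the GIMAP result was not tested.

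Other cells that use GIMAP genes include CD4 T cells, B cells, NK cells and endothelial cells. All 8 CD8 T cell markers had means above the median of all probe sets, as did 3 of 5 CD4 T cell, 3 of 8 B cell, 2 of 4 NK cell and 2 of 7 endothelial markers. RMA values have no zero, so a marker near the low end cannot be called absent. The B cell markers averaged 5.82 and 6.08 in the TCDD arrays, against 5.94 and 5.98 in the DMSO arrays, and TCDD replicate 1 was again the lowest. The endothelial markers averaged 5.55 and 5.70 in the TCDD arrays, against 5.65 and 5.68 in the DMSO arrays, with TCDD replicate 1 lowest here as well. The NK cell markers averaged 5.69 and 5.81 in the TCDD arrays, against 5.62 and 5.88 in the DMSO arrays. The CD4 T cell markers averaged 6.04 and 6.19 in the TCDD arrays, against 6.08 and 6.03 in the DMSO arrays. The ranges of the TCDD and DMSO arrays overlapped for each of these but the CD8 list, and the part of these cells in the GIMAP result was not tested. Of 7 neutrophil markers, S100a8 and S100a9 stood out in DMSO replicate 2. There they measured 8.67 and 7.80, and in the other arrays S100a8 was between 5.45 and 5.94 and S100a9 between 4.61 and 5.63. Camp and Ngp were also highest in that array, at 6.52 and 6.89, by smaller margins. Mpo, Elane and Cxcr2 were not highest there. Without DMSO replicate 2 Gimap6 differed by −0.72 and Gimap1 by −0.44.

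**Figure D4:**
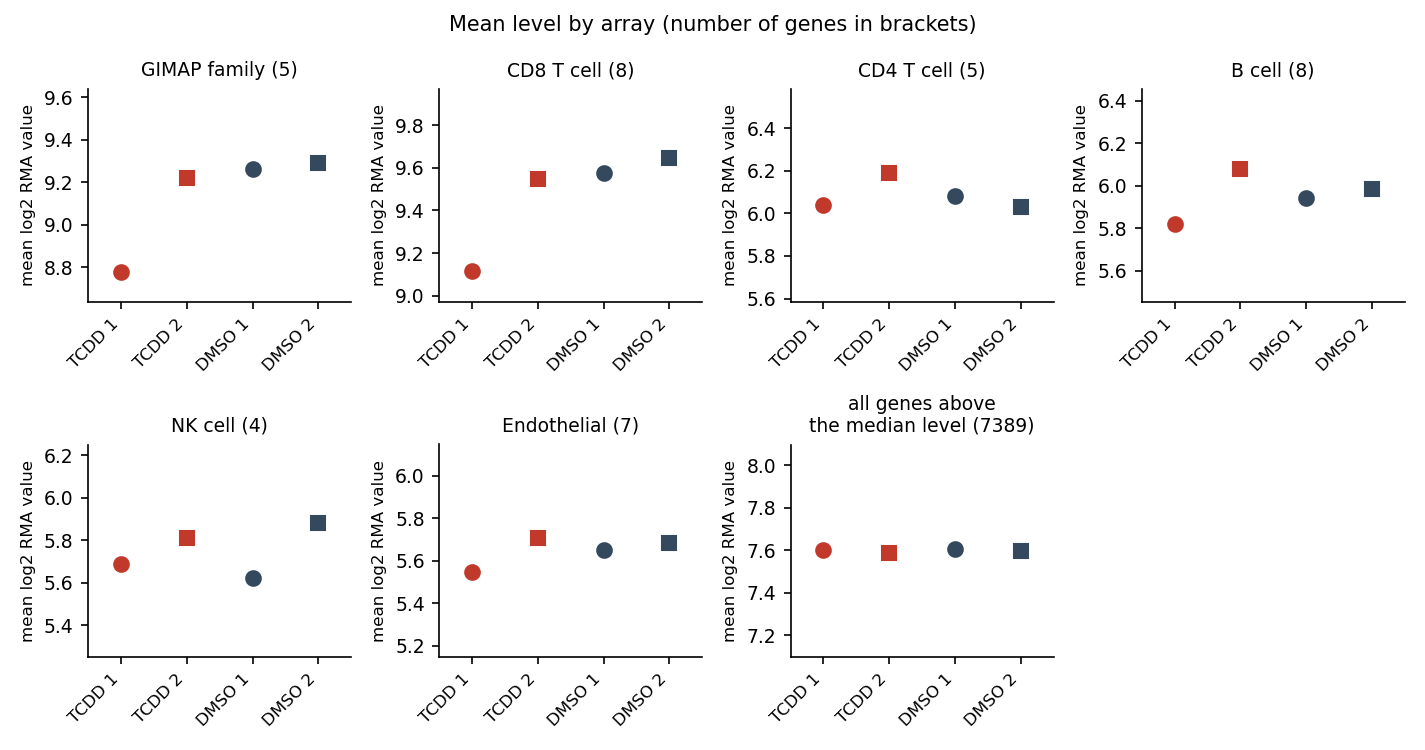
Mean log2 RMA value by array (y axis, each panel spanning the same range of 1) over the GIMAP genes, markers of CD8 T, CD4 T, B, NK and endothelial cells, and all genes above the median level, with red for TCDD and blue for DMSO arrays. TCDD replicate 1 is lowest for the GIMAP genes, at 8.78, the CD8 T cell markers, at 9.115, the B cell markers, at 5.82, and the endothelial markers, at 5.55.

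Genes around the GIMAP proteins in lymphocyte survival had differences of both signs, and 0 members of these lists passed limma. In the BCL2 family, which decides between survival and death at the mitochondrion, 11 of 13 listed genes were measured, with a median difference of −0.07. Both TCDD arrays were below for 2 of the 11 and above for 2, against 12.0% and 12.9% of all named genes. Bcl2 itself, chosen after its values were seen because its protein can bind GIMAP3 and GIMAP5, measured 7.51 and 7.42 in the TCDD arrays, against 7.54 and 7.53 in the DMSO arrays. By the probe sets used here the antiapoptotic gene Mcl1 differed by 0.31, and its 5 other probe sets went both ways, from −0.32 to 0.465. The death-promoting genes Bcl2l11 and Bbc3 differed by −0.22 and 0.20, and the other probe sets of Bcl2l11 by between −0.175 and 0.135. Bcl2l11 turned to 0.21 without DMSO replicate 2. Pmaip1, another death-promoting gene, measured 7.22 and 4.81 in the TCDD arrays, against 7.53 and 4.89 in the DMSO arrays. Its arrays numbered 2 were far below those numbered 1 in both groups, and its difference of −0.195 ran from −1.515 without DMSO replicate 2 to 1.125 without DMSO replicate 1. The list's median turned to 0.04 without TCDD replicate 1 and to 0.01 without DMSO replicate 2, and it was −0.045 without TCDD replicate 2.

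Interleukin 7 keeps resting T cells alive through JAK and STAT5 proteins, and 8 of 9 listed genes of this axis had a median difference of 0.05, with Stat5a at 0.34, Stat5b at −0.21, the kinase gene Jak3 at −0.10 and the receptor gene Il7r at 0.09. Both TCDD arrays were below for 1 of the 8 and above for 0, against 12.0% and 12.9% of all named genes. The other probe set of Il7r differed by −0.465 and that of Stat5b by 0.125, each opposite in sign to the first. Stat5a turned to −0.015 without TCDD replicate 1 and to −0.035 without DMSO replicate 2, Jak3 to 0.195 and Il7r to −0.10 without TCDD replicate 1. The list's median turned to −0.16 without TCDD replicate 2, to −0.0475 without DMSO replicate 2 and to −0.0713 for the mean of each gene's probe sets.

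All 14 listed autophagy genes were measured, with a median difference of 0.0475. Both TCDD arrays were below for 2 of the 14 and above for 3, against 12.0% and 12.9% of all named genes. Gabarapl2, the partner of GIMAP6, chosen after its values were seen, measured 8.19 and 8.10 in the TCDD arrays, against 8.04 and 8.17 in the DMSO arrays. The ATG8 family gene Map1lc3b differed by 0.415 and Atg16l1, which encodes part of the complex that attaches ATG8 proteins to lipid, by 0.41. Atg3, which encodes an enzyme of the same attachment, differed by −0.385. Its other probe set differed by 0.085, and those of Map1lc3b by between 0.045 and 0.575. Becn1, which encodes a subunit of the lipid kinase that starts autophagosomes, differed by −0.815, with −0.11 within number 1 and −1.52 within number 2, and its other probe sets differed by between −0.46 and 0.08. The list's median was 0.1025 without TCDD replicate 2, 0.09 without DMSO replicate 1, 0.03 without TCDD replicate 1 and 0.0125 without DMSO replicate 2.

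GIMAP5 acts on the kinase GSK3 in T cells, and the 7 genes listed for GSK3 and NFAT had a median difference of −0.07, which turned to 0.035 without TCDD replicate 2 and was −0.115 without DMSO replicate 1 and −0.015 without DMSO replicate 2. Both TCDD arrays were below for 1 of the 7 and above for 1, against 12.0% and 12.9% of all named genes. The transcription factor genes Nfatc1, Nfatc3 and Nfat5 differed by 0.25, −0.20 and −0.20. Nfatc1 turned to −0.065 without DMSO replicate 2 and Nfatc3 to 0.11 without TCDD replicate 2. The other probe set of Nfatc1 differed by −0.07 and that of Nfatc3 by 0.065, each opposite in sign to the first. Those of Nfat5 differed by between −0.045 and 0.215.

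Of 12 listed genes of resting naive T cells 10 were measured, with a median of −0.34 that turned to 0.0325 without TCDD replicate 2 and was −0.5375 without TCDD replicate 1. The within-number medians of this list were 0.105 for number 1 and −0.67 for number 2, whereas those of the GIMAP genes were −0.61 and −0.05. Both TCDD arrays were below for 2 of them, Klf2 and S1pr1, and above for Foxp1, against 12.0% and 12.9% of all named genes. S1pr1 is named to complete the count, after its values were seen. Klf2, a quiescence factor, had the largest difference of the list, −1.17, which did not pass limma. It was at 9.90 and 9.48 in the TCDD arrays, against 11.32 and 10.40 in the DMSO arrays. Foxo1 differed by −0.535 with overlapping groups, and its 3 other probe sets by between 0.055 and 0.165. Foxp1 differed by 0.46, and its other probe sets went both ways, from −0.315 to 0.61, each with overlapping groups. The antiproliferative gene Tob1 differed by −0.475 and measured 9.05 and 6.16 in the TCDD arrays, against 8.69 and 7.47 in the DMSO arrays. Its difference was 0.97 without TCDD replicate 2, 0.135 without DMSO replicate 1 and −1.92 without TCDD replicate 1.

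Interferon-induced GTPases, another family of immune GTPases, had 11 of 15 listed genes measured and a median of −0.22, which was −0.075 without DMSO replicate 2. Both TCDD arrays were below for 1 of them, Gbp2, named after its values were seen, and above for 0. The shares over all named genes were 12.0% and 12.9%. The largest differences were those of Ifi47, Irgm2, Iigp1 and Igtp, at −0.75, −0.49, −0.425 and −0.34, each with overlapping groups. Irgm2 turned to 0.06 without DMSO replicate 2 and Igtp to 0.045 without TCDD replicate 1.

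Gimap7 had the widest range over the arrays, 1.19, and the genes above the median level with the profile most like it were sought by the root mean square distance between values centred on each gene's mean over the 4 arrays. Of 7388 genes compared, the nearest were Id3, Ost4, Ifi27l2a, Tor4a and Pglyrp2, at distances of 0.0536, 0.0853, 0.0884, 0.091 and 0.108. Id3, which encodes an inhibitor of E protein transcription factors, measured 6.21 and 7.31 in the TCDD arrays, against 7.01 and 7.24 in the DMSO arrays. For Gimap6 the nearest profile, looked up after the values were seen, was that of the T cell surface glycoprotein gene Thy1, at a distance of 0.0618, with 9.70 and 9.46 in the TCDD arrays and 10.34 and 10.22 in the DMSO arrays. Within the family the closest pair was Gimap3 and Gimap4, at 0.15, and the farthest Gimap6 and Gimap7, at 0.538. With 4 arrays and 7388 genes such distances are a description.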

How the data were processed

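Expression was measured with Affymetrix arrays on 4 samples, 2 TCDD and 2 DMSO. The deposited table holds log2 values per probe set, made by the authors with RMA per the submitters' processing notes. No RMA version is stated there; values from 3.09 to 14.62 show the log2 scale. RMA usually includes background correction and quantile normalisation, and it compresses differences of dim probe sets. No pair of arrays was identical (Pearson r 0.9806 to 0.9932 over probe sets), and precision is limited by their number.

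Of 22690 probe sets 64 controls were left out. Genes were named by the platform annotation, and Entrez identifiers gave the current RefSeq GRCm38.p6 symbols: 20380 probe sets had 1 symbol, 691 several and 1555 none. The probe set with the highest mean stood for a gene. TCDD minus DMSO was fitted with limma 3.58.1 in R 4.3.3 (lmFit, eBayes, no covariate, no filter) and adjusted by Benjamini-Hochberg over 22626 probe sets. On simulated data the step was checked only for returning the mean size of planted changes, all larger than any GIMAP difference. Lists were described by counts and medians, without a test. Promoter strand was checked on 1839 overlapping windows of opposite strand, of which 1839 matched as reverse complements.

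The members, lists and tests were chosen with earlier results of these data known. Named were all members, the 2 to 4 genes of each survival list with the largest differences above the median level, the 5 nearest measured genes on each side of the cluster, and the 5 profiles most like that of the member with the widest range. Single cell type markers were named outside this rule, with their values known, and other exceptions are marked. Alternatives were median centring, quantile normalisation, filters on the mean level (25th percentile, median), variance trend with robust fit, array weights, exclusion of _x_at and _s_at probe sets, gene means, a replicate block, and each array left out.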

Additional observations from a re-analysis of the deposited data

How the results depend on the processing

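The count of GIMAP genes past the limma threshold was 0 in each of 13 alternatives, as was that of all probe sets, and at an unadjusted p under 0.05 the main fit gave 1 GIMAP gene. Gimap6 and Gimap1 kept their sign in each of the 13, with ranges of −0.72 to −0.49 and −0.68 to −0.16 (adjusted p 0.7954 to 1 for both). That sign could not turn as arrays were left out, because the groups did not overlap. Filters, variance trend with robust fit, array weights (equal within each group) and the block leave a gene's difference of group means unchanged. These alternatives could therefore not turn the sign either. The GIMAP median difference, −0.30, was between −0.495 and 0.05 when single arrays were dropped and between −0.30 and −0.2625 otherwise. Of the alternatives that kept all arrays, only the further quantile normalisation moved it. With single arrays dropped, Gimap7 was between −0.895 and 0.295, Gimap4 between −0.32 and 0.23 and Gimap3 between −0.125 and 0.075. Without TCDD replicate 1 these turned to 0.295, 0.23 and 0.05. The difference of Gimap3 also turned to 0.075 without DMSO replicate 2 and to 0.01 after a further quantile normalisation. The cause was not tested. Gimap4 was at −0.28 without _x_at and _s_at probe sets and at −0.1625 for the mean of its probe sets. The median of the interleukin 7 list turned to −0.0713 for gene means. That of the BCL2 list, −0.07, was −0.16 after the filter at the median level, −0.145 without _x_at and _s_at probe sets and −0.01 for gene means. Fits on 3 arrays take the spread of the lone array from the complete group.

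With the title number as a replicate block the differences were the same, as a balanced design requires. In that fit 0 probe sets passed, and the limma p of Gimap6 was 0.007005 (adjusted p = 0.9942). The correlation over probe sets between the number difference in TCDD and that in DMSO arrays was 0.2338, and with 2 numbers and no label saying what they mark, the arrays were not treated as pairs. The block changed no call.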
